A study of Mus musculus with 10 samples.

Results

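A set of 10 genes of excitation-contraction coupling in skeletal muscle was followed: Cacna1s, Cacnb1, Cacng1 and Stac3 of the voltage sensor, Ryr1 and Trdn of calcium release, the junctophilins Jph1 and Jph2, and the channels Scn4a and Clcn1. They were taken by name, 10 of the 15883 genes in the count table, and all 10 were among the 13338 genes that passed the filter on low counts. The tissue was biceps femoris, a muscle of the thigh, taken from male C57BL/6J mice aged 5 weeks that ate normal chow and then went without food for 16 hours. One group was wild type (n = 5) and the other carried a Zfp407 transgene (n = 5), written Zfp407 or Zp407 in the labels, and the comparison asks what differs in muscle when this zinc finger protein is overexpressed. The promoter that drives the transgene is not given in the sources used here. Nor do they say whether the mice came from separate litters, so p-values measure the spread between these samples. Columns name the group of a library and not the mouse, so libraries carry the column numbers 1 to 5.

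In excitation-contraction coupling an action potential runs along the fibre membrane into the transverse tubules, where the voltage sensor CaV1.1 changes shape and opens the ryanodine receptor of the facing sarcoplasmic reticulum. Calcium leaves the reticulum and starts contraction. Skeletal muscle differs from heart in that this step needs contact between the channels and no entry of calcium from outside, so that the voltage sensor, the release channel and the proteins that hold both membranes together form a fixed assembly, the triad.

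Zfp407 stood at 21 to 25.7 CPM in the wild type and at 317 to 616 CPM in transgenic muscle (log2 fold change 4.41 ± 0.19, SE; edgeR quasi-likelihood adjusted p = 8.15e-08), as the labels say. CPM are counts per 1000000 of a library, here scaled by TMM, a factor per library that offsets differences in composition. Total counts ran from 13530367 to 19047834 per library, and a member had between 505 and 57180 counts. The share of reads on the rows Lars2, Gm15564 and Gm15662 was 9.62% to 17.3% in transgenic muscle against 14.3% to 33.9% in wild type. With these rows left out the log2 fold changes of Cacna1s and Ryr1 were both -0.56, and the part of this share in the results was not tested further. The general fibre markers Acta1, Ckm, Des, Ttn, Neb, Myot and Pygm together made up 141284 to 196313 CPM in the wild type. In transgenic muscle they made up 114864 to 141806 CPM. The 3 of 6 cardiomyocyte markers that the table holds summed to at most 2.28 CPM. Markers of hepatocytes summed to 136 to 257 CPM in the wild type and to 373 to 4043 CPM in transgenic muscle, where 7 of 8 rose. Of the leukocyte markers 1 of 5 tested rose (80.9 to 153 and 106 to 269 CPM in sum), and no marker of slow or embryonic fibres, fibroblasts, endothelium, smooth muscle, fat or nerve passed in edgeR (2 of their 34 tested had an unadjusted p under 0.05, and DESeq2 called 1).

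Transgenic library 3 stood apart from the other 9. In it 51.6% of 13308 genes took the lowest or the highest level of all 10 libraries, against 10.7% to 23.9% in each other library. Its levels followed the GC content of the transcript: relative to the mean over libraries, genes in the lowest of 5 classes by GC content had a median of -0.51 and genes in the highest class a median of 0.44 (log2 CPM), a gap of 0.95. In the other libraries that gap was at most 0.20 in size. Among the 10 coupling genes this library was highest or lowest of all for 6, so the results are given with it and without it, and also from a fit that removes the GC trend of each library.

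**Figure D1:**
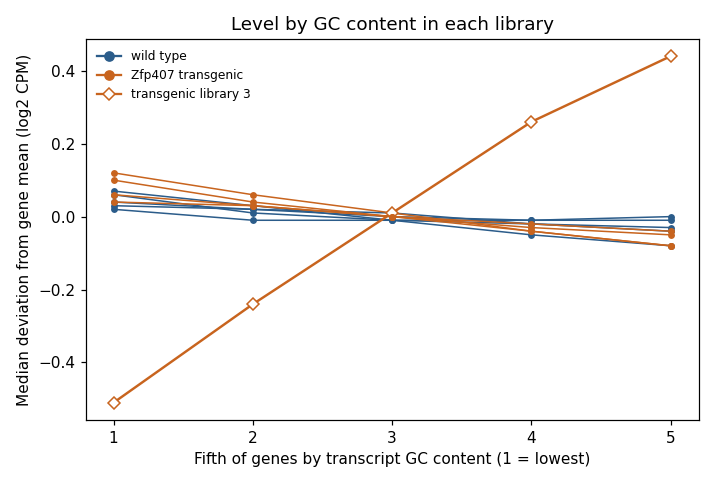
Median deviation of genes from their mean over the 10 libraries (log2 CPM, vertical axis) in 5 equal classes of genes by GC content of the longest transcript (horizontal axis), 1 line per library. Transgenic library 3 climbs from -0.51 to 0.44 while the other 9 lines stay between -0.08 and 0.12.

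Over all 10 libraries no coupling gene passed an adjusted p of 0.05 in edgeR's quasi-likelihood test, where 5.33% of all genes tested passed, 1.05% as lower and 4.28% as higher. DESeq2 called Cacna1s and Jph1, both lower, where 7.74% of all genes passed, 2.08% as lower and 5.66% as higher. In the authors' deposited table Jph1 alone passed, as lower, where 7.29% passed, 1.78% as lower and 5.52% as higher. An unadjusted p under 0.05 was reached by 3 (Cacna1s, Jph1 and Ryr1), and 18.1% of all genes did. Estimates were below 0 for 8 of the 10, where 49.6% of all genes tested were, with a median log2 fold change of -0.26 beside 0.003 for all genes tested. Without transgenic library 3 all 10 estimates were below 0, where 51% of all genes were, with a median of -0.31 beside -0.005 for all genes. The 10 genes were measured in the same libraries, so their estimates are not separate observations. Medians of the 7 general and the 10 fast fibre markers were -0.029 and -0.007 with all libraries. They were -0.264 and -0.169 in the fit without library 3. In that fit Cacna1s and Ryr1 fell, 2 of 10 genes, where 8.24% of all genes passed and 2.60% passed as lower, and 8 of 10 had an unadjusted p under 0.05, as had 22.7% of all genes. The same pair fell in the fit with the GC trend removed, where 7.78% of all genes passed and 2.53% passed as lower. With all libraries the groups overlapped for all 10 members, while they did not for 8.04% of all genes. In a bulk sample, fewer muscle fibre nuclei and less of a transcript per fibre cannot be told apart.

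**Figure D2:**
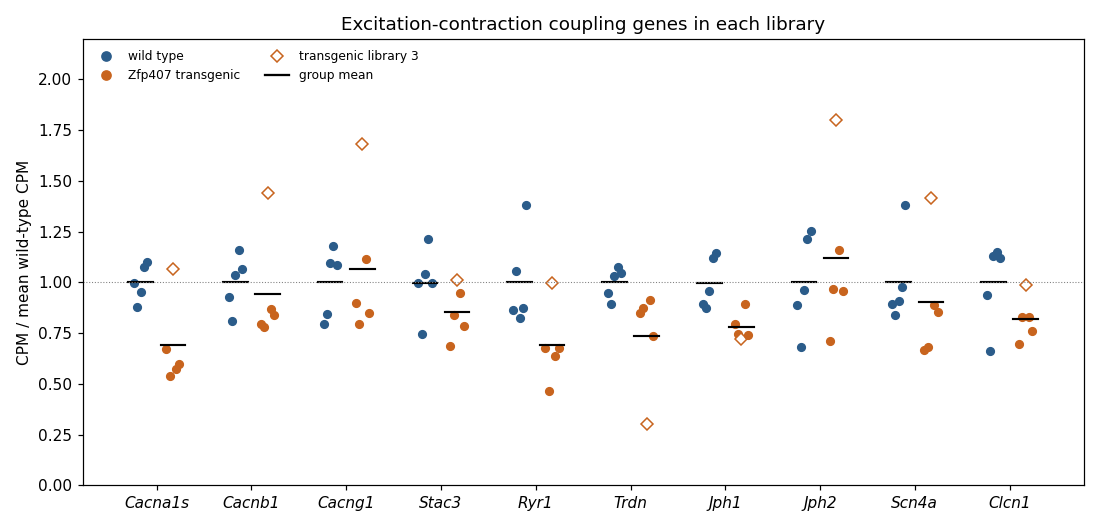
Level of each gene in each library as CPM divided by the mean of the wild-type libraries (vertical axis), with wild type in blue, transgenic in orange, transgenic library 3 as an open diamond and group means as lines. For Cacna1s and Ryr1 the diamond lies among the wild-type points while the other 4 transgenic points lie below every wild-type point, and for Trdn the diamond lies far below all other points.

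Cacna1s encodes the pore-forming subunit of CaV1.1, which carries the voltage sensor. It lies on chromosome 1 from 136052750 to 136119822 on the plus strand (GRCm38). Its level was 658, 579.8, 628, 709.9 and 725 CPM in wild-type libraries 1 to 5 and 443, 355, 704, 378 and 395 CPM in transgenic libraries 1 to 5. Thus 4 transgenic libraries lay below every wild-type library, and library 3 lay within the wild-type range. The means were 660 ± 59.6 and 455 ± 143 CPM (SD, n = 5 each), and 393 ± 37.3 CPM over the 4 transgenic libraries other than library 3. The log2 fold change was -0.54 ± 0.18 with all libraries (SE; adjusted p in edgeR = 0.110). Without library 3 it was -0.75 ± 0.10 (SE; adjusted p in edgeR = 0.00142), a level 40.6% lower. With the GC trend removed and library 3 kept it was -0.62 ± 0.13 (SE; adjusted p in edgeR = 0.0117).

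Ryr1 encodes the calcium release channel of the sarcoplasmic reticulum in skeletal muscle. The gene spans chromosome 7 from 29003344 to 29125179 on the minus strand (GRCm38). Wild-type libraries 1 to 5 held 2588, 3153, 2469, 2615 and 4128 CPM, and transgenic libraries 1 to 5 held 2022, 1390.4, 2977, 1912 and 2025 CPM. As for Cacna1s, the groups overlapped only through transgenic library 3. Without it 12.4% of 13338 genes had groups that did not overlap, and 702 genes, 5.26%, were lower in every transgenic library than in every wild-type library, and Cacna1s and Ryr1 were the 2 coupling genes among them. With all libraries the log2 fold change was -0.53 ± 0.20 (SE; adjusted p in edgeR = 0.176). It was -0.70 ± 0.18 without library 3 (SE; adjusted p in edgeR = 0.0316) and -0.62 ± 0.16 with the GC trend removed (SE; adjusted p in edgeR = 0.0314). Wild-type library 5 was the highest, and without it, with transgenic library 3 kept, the log2 fold change of Ryr1 was -0.39 and did not pass.

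Since these 2 genes passed together, the sequence before their start sites is shown, up to the earliest start in RefSeq or GENCODE. The bases come from RefSeq on GRCm38.p6, whose promoter table holds 6 of the 10 genes, and are written 5′ to 3′ on the strand of the gene, with capitals for CANNTG, the E-box that myogenic factors such as MyoD can bind. Cacna1s is read at chr1:136052561-136052749 on the plus strand and Ryr1 at chr7:29125180-29125401 on the minus strand.
Cacna1s: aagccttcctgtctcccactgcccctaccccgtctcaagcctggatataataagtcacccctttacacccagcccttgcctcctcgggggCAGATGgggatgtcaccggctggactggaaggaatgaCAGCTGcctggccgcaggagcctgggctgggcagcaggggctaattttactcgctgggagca
Ryr1: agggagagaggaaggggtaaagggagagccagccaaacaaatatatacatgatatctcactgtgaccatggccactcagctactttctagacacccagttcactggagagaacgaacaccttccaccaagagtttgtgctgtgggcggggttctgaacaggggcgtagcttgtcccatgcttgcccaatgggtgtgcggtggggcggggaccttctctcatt
The stretch of Cacna1s held 2 matches, of which 1 was CAGCTG, and that of Ryr1 held none. CANNTG reads the same on both strands. Of 32851 promoters 57.1% held CANNTG and 9.77% held CAGCTG in the same stretch of 189 bases, and 62.4% and 11.5% in the stretch of 222 bases used for Ryr1. A match is a run of letters and says nothing about binding.

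**Figure D3:**
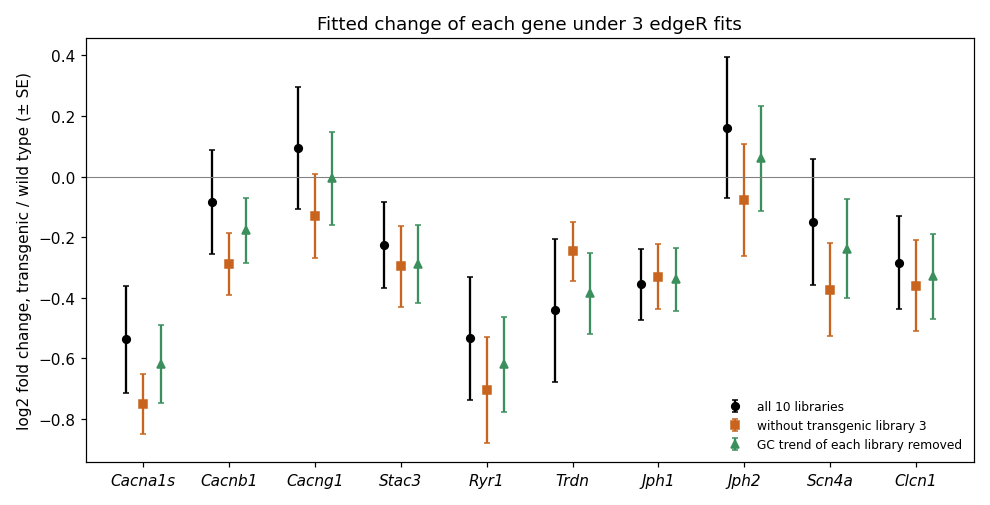
Log2 fold change of each gene, transgenic over wild type, with its SE (vertical axis) from 3 edgeR fits: all 10 libraries (black), without transgenic library 3 (orange) and with the GC trend of each library removed (green). The estimates for Cacna1s and Ryr1 lie between -0.75 and -0.53 in all 3 fits, while those for Cacng1 and Jph2 lie on both sides of 0.

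None of the 3 other voltage sensor genes passed with or without library 3. Cacnb1 encodes the cytoplasmic beta subunit, which brings CaV1.1 to the triad, and lies on chromosome 11 from 98001508 to 98023034. It had 76.7, 66.9, 85.5, 95.8 and 88.2 CPM in the wild type and 65.8, 64.5, 119, 71.7 and 69.2 CPM in transgenic muscle. Library 3 was again the high one, above all 9 others. The log2 fold change was -0.08 ± 0.17 (SE; adjusted p in edgeR = 0.859) and -0.29 ± 0.10 without library 3 (SE; adjusted p in edgeR = 0.115).

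Cacng1, on chromosome 11 from 107703218 to 107716522, encodes the gamma subunit, a membrane protein that tempers the calcium current. It had 74.8, 79.5, 103, 111 and 102 CPM in the wild type and 84.3, 74.6, 158, 105 and 79.8 CPM in transgenic muscle. The groups overlapped, and the estimate changed sign with library 3, at 0.09 ± 0.20 with it and -0.13 ± 0.14 without it (log2, SE; adjusted p in edgeR = 0.864 and 0.639). Stac3, on chromosome 10 from 127501686 to 127508823, encodes an adaptor that the voltage sensor needs to reach the membrane and to couple. Its libraries ran from 67.5 to 109.8 CPM in the wild type and from 62.3 to 91.6 CPM in transgenic muscle, with a log2 fold change of -0.23 ± 0.14 (SE; adjusted p in edgeR = 0.443).

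The ratio of 2 genes within a library does not depend on the scaling of that library. Cacnb1 per Cacna1s count was 0.117, 0.116, 0.136, 0.135 and 0.122 in the wild type and 0.149, 0.182, 0.169, 0.190 and 0.175 in transgenic muscle. Every transgenic library, library 3 included, lay above every wild-type library. The difference was 0.47 on the log2 scale (exact two-sided permutation test over 252 splits, p = 0.00794, the smallest it can give; adjusted p = 0.0278 over 7 ratios). Cacng1 per Cacna1s count was 0.114, 0.137, 0.164, 0.156 and 0.141 in the wild type and 0.190, 0.210, 0.225, 0.279 and 0.202 in transgenic muscle, a difference of 0.63 (log2; exact permutation p = 0.00794, adjusted p = 0.0278). Here too the groups did not overlap. In both pairs the auxiliary gene thus had more reads per read of the pore gene in transgenic muscle. The 2 ratios share Cacna1s as denominator, so they are not separate results. The log2 fold change of Cacna1s was -0.54, beside -0.08 for Cacnb1, 0.09 for Cacng1 and a median of 0.003 for all genes tested (edgeR, all libraries). How many of all genes have a ratio to Cacna1s that separates the groups was not examined. Both ratios passed in 7 of 10 repeats that left out 1 library, and without wild-type library 1, 2 or 5 the adjusted p rose to at most 0.0556.

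The other ratios did not pass. Stac3 per Cacna1s count had geometric means of 0.136 in the wild type and 0.174 in transgenic muscle (exact permutation p = 0.0873, adjusted p = 0.153). For the release channel and the voltage sensor, Ryr1 per Cacna1s count ran from 3.68 to 5.69 in the wild type and from 3.92 to 5.13 in transgenic muscle, where library 3 was at 4.23 (log2 difference 0.03; exact permutation p = 0.825). The log2 ratio varied by an SD of 0.295 in the wild type and 0.167 in the transgenic libraries (n = 5 each), so a difference smaller than that spread would not show.

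**Figure D4:**
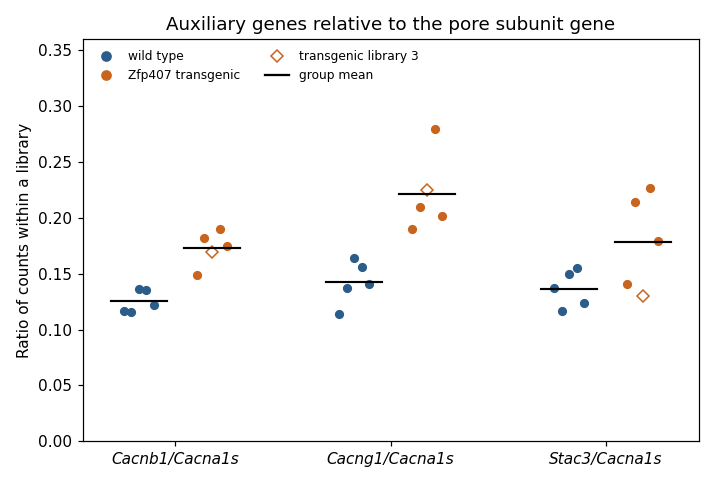
Ratio of counts of Cacnb1, Cacng1 and Stac3 to those of Cacna1s within each library (vertical axis, from 0), with wild type in blue, transgenic in orange, transgenic library 3 as an open diamond and means as lines. The transgenic points of the first 2 ratios, 0.149 to 0.190 and 0.190 to 0.279, lie above all wild-type points, while those of Stac3 overlap with them.

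Trdn encodes triadin, which anchors the calcium-binding protein calsequestrin at the release channel. The gene spans chromosome 10 from 33080554 to 33476709. It had 1399, 1316, 1519, 1588 and 1543 CPM in the wild type and 1253, 1291, 449, 1344 and 1084 CPM in transgenic muscle. Library 3 was lowest by far, library 4 lay within the wild-type range, and the other 3 lay below it. The transcript has the lowest GC content of the 10, at 36.8%, where Jph2 has the highest at 61.8%. The log2 fold change was -0.44 ± 0.24 (SE; adjusted p in edgeR = 0.350) and -0.25 ± 0.10 without library 3 (SE; adjusted p in edgeR = 0.157). Trdn per Ryr1 count was 0.151 in transgenic library 3 and 0.374 to 0.928 in the other 9 libraries, so 1 library sets the spread of that ratio (exact permutation p = 0.968, and p = 0.103 without that library).

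The junctophilins bridge the transverse tubule and the sarcoplasmic reticulum. Jph1, the form most typical of skeletal muscle, lies on chromosome 1 from 16964560 to 17097889 and had 301, 293, 322, 377 and 385 CPM in wild type against 267, 251, 243, 301 and 249.6 CPM in transgenic muscle. Only transgenic library 4 reached into the wild-type range. Of the 10 members its log2 fold change varied least over the 3 fits, at -0.36 ± 0.12 with all libraries, -0.33 ± 0.11 without library 3 and -0.34 ± 0.10 with the GC trend removed (SE; adjusted p in edgeR = 0.105, 0.0853 and 0.0709). DESeq2 gave it an adjusted p of 0.0211 and the authors' deposited table one of 0.0296, so its call depends on the tool. Jph2, shared with heart and on chromosome 2 from 163336242 to 163397993, had 184, 141, 199, 251 and 259.9 CPM in the wild type and 147, 200.1, 373, 239.6 and 198 CPM in transgenic muscle. Its estimate was 0.16 ± 0.23 with library 3 and -0.08 ± 0.18 without it (log2, SE). Jph1 per Jph2 count had geometric means of 1.65 and 1.19 (exact permutation p = 0.0635, adjusted p = 0.148), and library 3, at 0.651, was the lowest of all. The log2 difference was -0.48, and -0.26 without library 3 (exact permutation p = 0.127). Without transgenic library 1 it was -0.63 and passed (exact permutation test, adjusted p = 0.0185).

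Scn4a encodes the sodium channel that carries the action potential of the fibre. On chromosome 11 from 106318592 to 106353288, it ran from 211 to 347 CPM in wild type, highest in library 5, and from 168 to 356 CPM in transgenic muscle, highest in library 3. Its log2 fold change was -0.15 ± 0.21 (SE; adjusted p in edgeR = 0.778) and -0.37 ± 0.15 without library 3 (SE; adjusted p in edgeR = 0.177). Clcn1 encodes the chloride channel that steadies the resting membrane, and its loss causes myotonia. The gene lies on chromosome 6 from 42286685 to 42315756 and overlaps Fam131b on the opposite strand, which had 325 counts in all beside 9632 for Clcn1. Its libraries ran from 42.8 to 74.6 CPM in the wild type and from 45.2 to 64.0 CPM in transgenic muscle (log2 fold change -0.28 ± 0.15, SE; adjusted p in edgeR = 0.362). Clcn1 per Scn4a count had geometric means of 0.257 and 0.243 (exact permutation p = 0.675).

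The levels of the 10 genes differed widely. Per kilobase of merged exons, in CPM, wild-type means ran from 158 ± 12.0 for Trdn to 11.9 ± 2.48 for Clcn1 (SD, n = 5), a fold of 13.2. After Trdn followed Ryr1 at 137 ± 31.5, Cacna1s at 101 ± 9.09, Cacng1 at 75.3 ± 12.7 and Jph1 at 67.2 ± 8.59 CPM per kilobase. Lower still were Jph2 at 48.6 ± 11.6, Scn4a at 35.6 ± 7.83, Stac3 at 35.5 ± 5.95 and Cacnb1 at 18.2 ± 2.46 CPM per kilobase. Trdn exceeded Ryr1 in 3 of 5 wild-type libraries, Cacng1 exceeded Jph1 in 4 of 5 and Scn4a exceeded Stac3 in 2 of 5, so these neighbours did not differ beyond their spread. The other neighbours kept their order in 5 of 5. In the transgenic group Cacna1s stood above Cacng1 in 1 of 5 libraries, against 5 of 5 in wild type. Merged exons join all annotated forms, so a gene of which muscle uses a short form is set too low on this scale.

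The 17 fast and general fibre markers together ranged from 216861 to 297696 CPM in the wild type and from 184539 to 222552 CPM in transgenic muscle, and 0 of 17 passed in edgeR's test or in DESeq2 (1 had an unadjusted p under 0.05). These sums overlapped through wild-type library 1 and transgenic library 4. Per 1000 CPM of these markers, Cacna1s was 2.44 to 3.03 in the wild type and 1.70 to 2.16 in the 4 transgenic libraries other than library 3, which was at 3.27. Ryr1 was 10.2 to 13.9 in wild type, 7.53 to 9.83 in those 4 and 13.8 in library 3. Relative to fibre markers those 4 libraries lay below every wild-type library for both genes, and library 3 did not. How many of all genes separate in this way was not examined, and the part of fibre content was not tested. Trdn, at 5.18 to 6.64 in the wild type and 5.1 to 6.99 in those 4, and Jph1, at 1.29 to 1.47 and 1.17 to 1.36, overlapped. This ratio was chosen after the sums had been seen. Slow fibre markers summed to 144 to 1443 CPM in the wild type and 236 to 792 CPM in transgenic muscle, with wild-type library 1 the highest. Hepatocyte and leukocyte markers were higher in the group where Cacna1s and Ryr1 were lower, and their part in the result was not tested.

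The genes whose deviation from the group mean was most like that of Ryr1 over the 10 libraries were Sptb, a spectrin of the membrane skeleton (Pearson r = 0.99), Adcy9 (0.979), Usp19 (0.969), Eif4g1 (0.969) and Pde4dip (0.967). Over the 9 libraries without transgenic library 3 these values were 0.959 to 0.984. For Cacna1s they were R3hdm4 (0.986), Emc10 (0.976), Gpatch3 (0.974) and 0610009O20Rik (0.966), and 0.800 to 0.925 without library 3. Those 9 genes have a GC content of 51.0% to 60.9%, and Ryr1 and Cacna1s have one of 58.0% and 54.1%. They were picked as the highest of all genes tested, so the values describe these libraries and carry no test.

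Of 84 further genes of the pathway in 6 lists, 77 were tested, and Asph and Slc8a3 fell while Ryr3 rose. Of all genes tested 5.33% passed, 1.05% as lower and 4.28% as higher. The median log2 fold change of the 77 was -0.06 beside 0.003 for all genes tested. Without transgenic library 3, 1 rose and 5 fell, where 5.64% of all genes passed as higher and 2.60% as lower. With the GC trend removed 1 rose and 6 fell, where 5.26% and 2.53% of all genes did. Those added included Hrc and Mrln without the library, and Hrc, Kcnj2 and Chrnb1 with the trend removed, of which Hrc and Kcnj2 are named after their values were seen.

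Among partners of the release channel, Asph and Ryr3 of 13 tested passed. Asph encodes aspartyl beta-hydroxylase and, through other splice forms, junctin, which binds the ryanodine receptor and calsequestrin. Counts per gene do not separate these forms. It lies on chromosome 4 from 9448069 to 9669344 and had 232, 199, 221, 257 and 202 CPM in the wild type and 140, 165, 92.4, 138 and 132 CPM in transgenic muscle. Every transgenic library lay below every wild-type library, as for 2.90% of all genes. The log2 fold change was -0.73 ± 0.14 (SE; adjusted p in edgeR = 0.0104) and -0.63 ± 0.10 without library 3 (SE; adjusted p in edgeR = 0.00401), and Asph passed in each of 16 alternative analyses. Hrc, a calcium-binding protein of the reticulum that joins triadin, had 434 to 639 CPM in the wild type and 375 to 417 CPM in transgenic muscle with no overlap (log2 fold change -0.42 ± 0.12, SE; adjusted p in edgeR = 0.0548). It passed without library 3 (edgeR adjusted p = 0.0401).

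Ryr3, a second ryanodine receptor that is present mainly in young muscle and in some muscles such as the diaphragm, was low. It had 1.1, 1.27, 3.33, 1.24 and 1.3 CPM in the wild type and 3.5, 3.96, 5.82, 7.37 and 3.54 CPM in transgenic muscle. The groups did not overlap, although wild-type library 3 came close to the lowest transgenic library. Its log2 fold change was 1.52 ± 0.33 (SE; adjusted p in edgeR = 0.0168), a fold of 2.87, from 577 counts in all. Without wild-type library 1, 2, 4 or 5 it lost its call, with an edgeR adjusted p of up to 0.0589. It lies on chromosome 2 from 112631355 to 113217096 and overlaps Aven on the opposite strand, with 1271 counts in all. How strand entered the counting is not stated, and without it reads of this pair cannot be told apart.

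Of 16 genes listed under store-operated and mitochondrial calcium entry, 1 passed. The list also holds exchangers and calcium pumps, and the gene that passed is an exchanger. Slc8a3 encodes the sodium-calcium exchanger NCX3 and lies on chromosome 12 from 81197915 to 81333180. It had 57.5, 50.6, 54.9, 61.6 and 70.9 CPM in the wild type and 46.0, 45.9, 41.5, 43.1 and 47.5 CPM in transgenic muscle, which was lower throughout. The log2 fold change was -0.40 ± 0.11 (SE; adjusted p in edgeR = 0.0489), and the call held without transgenic library 3 or wild-type library 2 and was lost without any other single library (edgeR adjusted p up to 0.117).

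No gene passed in the other 4 lists over all 10 libraries, by edgeR's adjusted p. In the order that follows, 1, 3, 3 and 2 of their genes had an unadjusted p under 0.05, and DESeq2 called 1, 2, 1 and 0. Of 11 genes of calcium uptake, storage and buffering, Mrln, whose micropeptide myoregulin restrains the calcium pump, had 16.4 to 33.4 CPM in the wild type and 11.6 to 20.9 CPM in transgenic muscle (log2 fold change -0.64 ± 0.21, SE; adjusted p in edgeR = 0.0984, and 0.0326 without transgenic library 3). Srl, which encodes sarcalumenin, had 1547 ± 156 CPM and 1841 ± 179.8 CPM (SD, n = 5 each; edgeR adjusted p = 0.296). Of 14 conduction genes, Chrnb1, an acetylcholine receptor subunit, had a log2 fold change of -0.31 ± 0.10 (SE; adjusted p in edgeR = 0.0960). Of 13 further genes of the voltage sensor and its scaffold, Tmem38b, a cation channel of the reticulum, had one of -0.35 ± 0.11 and Mtm1, a phosphatase of tubule upkeep, one of -0.31 ± 0.14 (SE; adjusted p in edgeR = 0.0978 and 0.243). That of Mtm1 was -0.20 ± 0.07 without transgenic library 3, where the gene was lowest (SE; adjusted p in edgeR = 0.129). Of 10 genes of calcium-dependent signalling, Rcan1, a calcineurin regulator, stood at 0.61 ± 0.20 and Camk2a at -0.41 ± 0.15 (log2, SE; adjusted p in edgeR = 0.101 and 0.151).

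**Figure D5:**
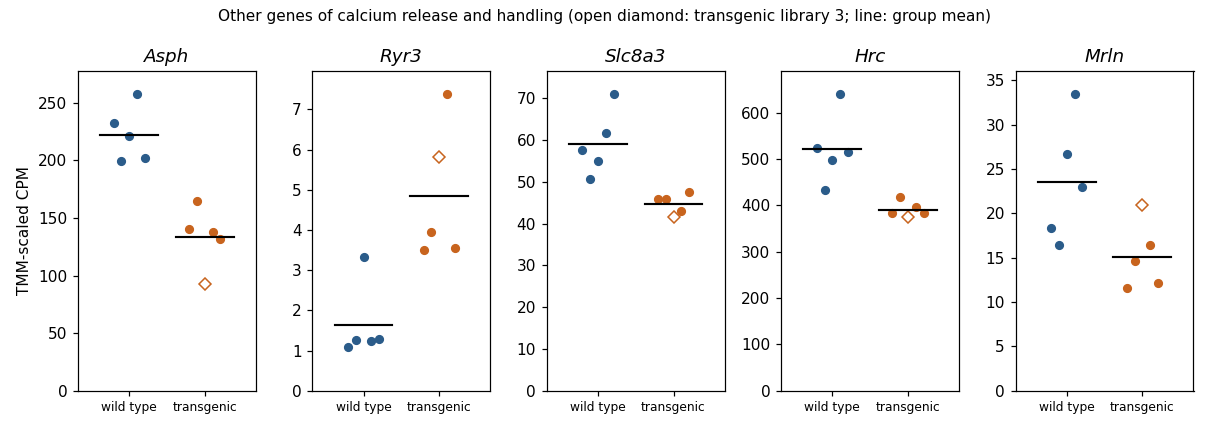
TMM-scaled CPM (vertical axes, from 0) of the 3 pathway genes that passed over all libraries, Asph, Ryr3 and Slc8a3, and of Hrc and Mrln, which passed without transgenic library 3, with wild type in blue, transgenic in orange, that library as an open diamond and means as lines. Asph, Slc8a3 and Hrc show no overlap between the groups on the low side and Ryr3 none on the high side.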

How the data were processed

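RNA-seq read counts of 5 wild-type and 5 Zfp407 transgenic muscles were used. The submitters' processing notes list HTSeq 0.6.1 and DESeq2 1.10, with TopHat2 2.1, SAMtools 1.2 and Bowtie2 2.2.6, and the build GRCm38.p4. They do not state strand, counting settings or gene models. The deposited table holds whole-number counts per gene, and beside them the authors' mean signal, log2 fold change with its standard error, Wald score and p-values.

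The main test was edgeR's quasi-likelihood test (version 4.0.16 in R 4.3.3, functions glmQLFit and glmQLFTest) after filterByExpr and TMM scaling, transgenic against wild type, with Benjamini-Hochberg adjustment over 13338 genes. SE came from the fold change and F. On simulated counts edgeR recovered 42% of genes changed 1.5-fold and 92% changed 2-fold, with 15 false calls among 13210 genes. Log2 CPM used a prior count of 2, and ratios log2 of count plus 1. The GC trend was a lowess fit per library, entered as an offset and added after the data had been seen. Positions and exon lengths are from GENCODE M21 (GRCm38). Libraries within a group differed beyond counting error (chi-square per degree of freedom at least 17.5 in each of 20 pairs).

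Members and lists were chosen with earlier results of these data known. The rule names all members, the called genes of each list or else the 2 with the smallest p, and the 5 genes most like Ryr1 and Cacna1s. A few genes that it names are not reported here. Alternatives were other size factors, DESeq2 1.42.0, no filter, removal of Lars2, Gm15564 and Gm15662 (9.62% to 33.9% of counts), p-values from the authors, leaving out each library, a pseudocount of 0.5 and CPM without TMM.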

Additional observations from a re-analysis of the deposited data

Results flagged for a closer look

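A library stood apart from the others of its group in 6 of 54 sets of 5 values examined, by the gap to its nearest neighbour as a share of the range of the group (critical value 0.71). Chance alone gives about 1 set in 20. Transgenic library 3 was the one for Cacna1s (704 CPM against 355 to 443, share 0.747), Cacnb1 (119 CPM against 64.5 to 71.7, share 0.868) and Mtm1 (14.2 CPM against 22.2 to 24.6, share 0.768). In wild type it was library 5 for Scn4a (347 CPM against 211 to 245, share 0.75), library 3 for Ryr3 (3.33 CPM against 1.1 to 1.3, share 0.912) and library 2 for the Jph1 to Jph2 ratio (2.09 against 1.48 to 1.64, share 0.743).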

How the results depend on the processing

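No member passed over all libraries, and 2 passed without transgenic library 3, 2 with the GC trend removed, 2 in DESeq2 and 1 by the p-values of the authors' deposited table. Of the fits that left out 1 library each, only the one without transgenic library 3 called any member, and the others called 0. The pathway genes that passed, 3 over all libraries, ran from 1 to 6 over those fits, and were 9 in DESeq2, 7 in the authors' deposited table and 7 with the GC trend removed. The 2 ratios that passed ran from 0 to 3. No called result reversed its direction. The median wild-type level per kilobase was 57.9 CPM, and 53.2 without TMM scaling. No paired analysis was possible because the labels give each sample a number of its own and the groups share none. The columns cannot be matched to those numbers, so a possible block of mice could not be entered in the fit either. Depth does not limit the members, each with at least 505 counts per library, and limits Ryr3.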
